A study of Homo sapiens with 3 samples.

Results

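The polo-like kinases are a family of serine/threonine kinases that are read here as 4 genes, PLK1, PLK2, PLK3 and PLK4, chosen by gene symbol from the 14949 genes of the deposited expression table. RNA sequencing was performed on MIAPaCa-2, an established cell line from a human pancreatic carcinoma, in 3 libraries. The sh-CTL library came from cells with a control short hairpin RNA and no drug, and the sh-METTL3 library from cells with a hairpin against METTL3 and no drug. The sh-CTL + PLK1i library came from the control hairpin cells exposed to NMS-P937, a small-molecule inhibitor of PLK1, at 80 nM for 24 h. All cells were grown in DMEM with fetal bovine serum, and the METTL3 knockdown cells were received by the study as a gift. Whether they were a single clone is not given in the sources used here. METTL3 is the catalytic subunit of the complex that writes N6-methyladenosine (m6A) on RNA, and PLK1 was the kinase that the study followed as a METTL3 target. The 3 libraries are called the control, knockdown and inhibitor libraries from here on. Each group had 1 library, so no difference had a replicate check and no p-value was computed.

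The family is named after the Drosophila kinase polo. Its members carry a kinase domain followed by polo-boxes, which dock the kinase onto its targets. PLK1 drives mitotic entry, spindle assembly and cytokinesis, and its mRNA is made mainly in G2 and M phase. PLK2 and PLK3 belong to the early response genes, which are switched on by serum and stress, and PLK4 starts the duplication of centrioles. PLK1 is often abundant in proliferating tumor cells and is the only member at which NMS-P937 was aimed.

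The depth in listed genes was 37449329 reads for the control, 46944898 for the knockdown and 47727518 for the inhibitor library. METTL3 had 3378 reads in the control, 1781 in the knockdown and 4223 in the inhibitor library. Its normalized count in the knockdown stood at 41.9% of the control (log2 change -1.25, interval -1.34 to -1.17), so the low METTL3 count lay in the library labelled sh-METTL3. Of 10 epithelial markers, 5 had a value (KRT8, KRT18, KRT19, CLDN4 and ESRP1), while the defining genes EPCAM, CDH1, KRT7, CLDN7 and GRHL2 had none. ESRP1 had 26 reads in the control, 3 in the knockdown and 15 in the inhibitor library. KRT8 lay between 2042 and 2646 CPM (counts scaled to a common library total), while the mesenchymal filament VIM lay between 4256 and 5608 CPM. Of 4 mesenchymal markers, VIM and ZEB1 had a value and CDH2 and FN1 had none. The epithelial label thus rested on keratins and CLDN4, without the junction genes EPCAM and CDH1. Of 5 markers of fibroblasts, endothelium and immune cells, COL1A2 lay between 932 and 1178 CPM, CD68 between 40.2 and 74.5 CPM and COL1A1 between 0.128 and 0.908 CPM, and PECAM1 and PTPRC had no value. The part of these genes in the kinase levels was not tested.

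The transcripts of the 4 kinases could be counted apart from each other. On GRCh37, PLK1 (ENSG00000166851) lies on the plus strand at chr16:23688977-23701688, PLK2 (ENSG00000145632) on the minus strand at chr5:57749809-57755966, PLK3 (ENSG00000173846) on the plus strand at chr1:45266049-45271662 and PLK4 (ENSG00000142731) on the plus strand at chr4:128802048-128820379. Their longest protein-coding transcripts in GENCODE 44 measured 2160, 2792, 2340 and 3838 bases in the order PLK1 to PLK4, with a GC content of 57.1%, 45.8%, 60.8% and 38.1%. Their 3′ untranslated regions (3′UTRs) were short, at 307, 599, 315 and 686 bases against a median of 1434 over listed protein-coding genes. None of the 50-base words in these 4 transcripts occurred in a transcript of any other gene. PLK1 overlaps ERN2 and ENSG00000261266 on the opposite strand, and PLK3 overlaps DYNLT4 on the opposite strand. PLK4 overlaps the small RNA gene RNU6-583P on its own strand. None of these overlapping genes is among the genes of the deposited expression table. Whether strand was used in counting is not given in the sources used here.

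METTL3 prefers an adenosine in the letters GGACT, so the transcripts were read for them. PLK1 held 4 matches in its coding sequence and 1 in its 3′UTR. PLK2 held 5 in the coding sequence and 3 in the 3′UTR. PLK4 held 3 in the coding sequence and 1 in the 5′UTR, whereas PLK3 held 0. For comparison, 7.47% of 12122 listed protein-coding genes held none, and 64.6% held at least 1 in the 3′UTR. The single PLK1 match and the 3 PLK2 matches in 3′UTRs are shown with 10 bases on either side, read 5′ to 3′ on the transcript strand from GRCh37, with GGACT in capitals.
PLK1, chr16:23701392-23701416, plus strand: cctcccctccGGACTggtgccctcc
PLK2, chr5:57750371-57750395, minus strand: ggaccctatgGGACTcctcttttcc
PLK2, chr5:57750260-57750284, minus strand: gtggcctgctGGACTggttggaacc
PLK2, chr5:57750086-57750110, minus strand: ttcagccagaGGACTttggaactgt

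The adenosine of the PLK1 match lies at position 23701404 of chromosome 16. It is the base that the study picked for site-directed removal of m6A in other experiments. PLK1 and PLK2 therefore both carried the letters in their 3′UTRs, PLK2 more often. A match is only a stretch of letters, and m6A itself was not measured in these libraries.

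Promoters were read next, because genes of G2 and M phase often carry a cell cycle homology region (CHR, TTTGAA) near the start together with CCAAT boxes. The 100 bases before the annotated start are shown for 1 start of each gene, from RefSeq on GRCh38.p14, 5′ to 3′ on the gene's strand, with TTTGAA and CCAAT in capitals.
PLK1, chr16:23678789-23678888, plus strand: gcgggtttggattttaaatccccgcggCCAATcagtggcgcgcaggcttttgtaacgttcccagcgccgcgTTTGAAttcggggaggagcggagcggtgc
PLK2, chr5:58460087-58460186, minus strand: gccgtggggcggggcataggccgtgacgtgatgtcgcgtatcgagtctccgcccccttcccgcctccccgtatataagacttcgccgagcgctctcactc
PLK3, chr1:44800277-44800376, plus strand: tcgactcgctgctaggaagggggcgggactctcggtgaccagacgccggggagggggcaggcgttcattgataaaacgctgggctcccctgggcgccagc
PLK4, chr4:127880793-127880892, plus strand: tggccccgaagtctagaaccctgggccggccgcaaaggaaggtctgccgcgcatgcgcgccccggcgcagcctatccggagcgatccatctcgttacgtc

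PLK1 carried TTTGAA with its first base 29 bases before the start and CCAAT with its first base 73 bases before it. Over the 250 bases before the start and on both strands, TTTGAA was found in PLK1 and in no listed start of PLK2, PLK3 or PLK4. It occurred in 13.3% of 35116 promoters of the same length. CCAAT occurred in 32.0% of them, and in this family in PLK1 and, on the opposite strand, 86 bases before the third listed start of PLK4. The absence of a match says only that these letters were not in the window.

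PLK2 was the most abundant polo-like kinase transcript in every library, and PLK1 came next. Levels are normalized counts per kb of transcript, and intervals are 95% Poisson intervals of the reads, which cover counting error only. PLK2 had 30081 reads in the control, 37119 in the knockdown and 38811 in the inhibitor library. Its level was 12563 per kb (12422 to 12706) in the control, 12323 (12198 to 12449) in the knockdown and 12797 (12670 to 12925) in the inhibitor library. By reads alone, PLK2 ranked 116th, 124th and 114th among all listed genes in the same order. PLK2 was thus among the most read genes of this cell line, and its level was nearly the same in the 3 libraries.

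PLK1 had 6910 reads in the control, 5638 in the knockdown and 9249 in the inhibitor library. The PLK1 level was 3730 per kb (3643 to 3819) in the control, 2419 (2357 to 2483) in the knockdown and 3942 (3862 to 4023) in the inhibitor library. The knockdown library was the low one, and its interval lay below those of both control hairpin libraries.

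PLK4, the centriole kinase, had 1730 reads in the control, 2147 in the knockdown and 2262 in the inhibitor library. Its level was 526 per kb (501 to 551), 519 (497 to 541) and 543 (520 to 565) in the same order, with overlapping intervals. PLK3 was the scarcest, with 434 reads in the control, 527 in the knockdown and 781 in the inhibitor library. Its level was 216 per kb (196 to 238), 209 (191 to 227) and 307 (286 to 330). For PLK3 the inhibitor library was the high one, and its interval did not overlap the other two.

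**Figure D1:**
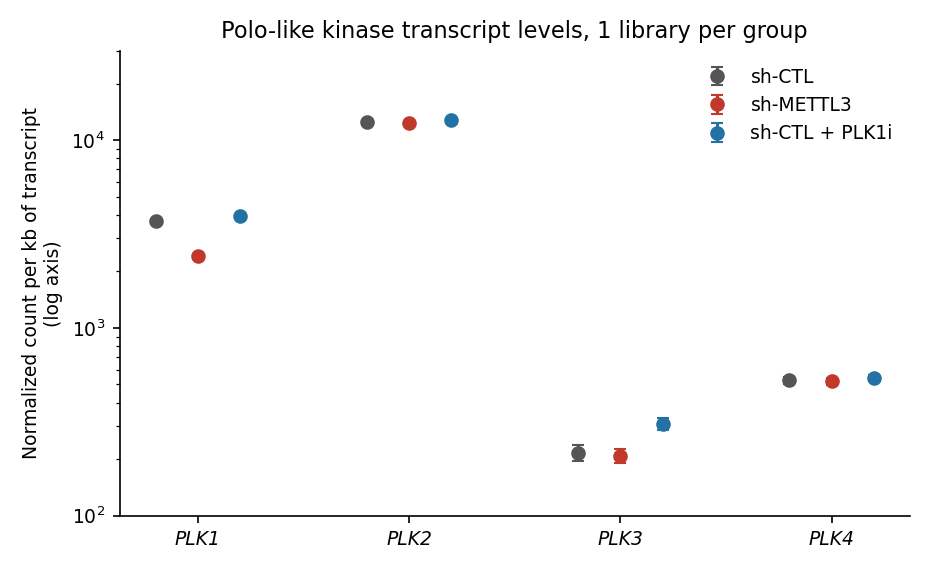
Level of each polo-like kinase transcript in the 3 libraries, as normalized count per kb of transcript on a log axis. Points are single libraries and bars are 95% Poisson intervals of the reads. PLK2 lies between 12323 and 12797 per kb, PLK1 is lowest in the knockdown at 2419, PLK4 lies between 519 and 543, and PLK3 is highest in the inhibitor library at 307.

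The order PLK2, PLK1, PLK4, PLK3 held in all 3 libraries, and no neighbors in it had overlapping intervals. The step from PLK2 to PLK1 was 3.37-fold per kb in the control, 5.09-fold in the knockdown and 3.25-fold in the inhibitor library. The step from PLK1 to PLK4 was 7.10-fold, 4.67-fold and 7.27-fold in the same order. The step from PLK4 to PLK3 was 2.43-fold, 2.48-fold and 1.77-fold. The spacing around PLK1 differed in the knockdown, and that around PLK3 differed after the inhibitor. From the top to the bottom of the family, PLK2 exceeded PLK3 by 58.1-fold, 59.0-fold and 41.6-fold per kb.

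As a share of all reads of the family, PLK1 took 17.6% (exact binomial interval 17.3 to 18.0) in the control, 12.4% (12.1 to 12.7) in the knockdown and 18.1% (17.8 to 18.4) in the inhibitor library. PLK2 took 76.8%, 81.7% and 75.9%. PLK4 took 4.42%, 4.73% and 4.43%, and PLK3 took 1.11%, 1.16% and 1.53%. These shares are of reads not divided by length, and they do not depend on how libraries were scaled against each other.

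Setting the knockdown beside the control asks whether reduced METTL3 goes with a different level of the kinases. PLK1 was lower in the knockdown, at 64.9% of its control level, and the other members stood between 96.5% and 98.6%. The log2 change of PLK1, computed from normalized counts with 1 added, was -0.62 (95% counting interval -0.68 to -0.57). The log2 change was -0.03 (-0.05 to -0.01) for PLK2, -0.05 (-0.24 to 0.14) for PLK3 and -0.02 (-0.11 to 0.07) for PLK4. The PLK3 and PLK4 values lay within counting error of no change, and the PLK2 value lay just outside it. A level in bulk RNA mixes the share of cells that express a gene with the amount of its mRNA per cell, and the cell cycle phase of these cells was not measured. Values in the knockdown are given here for some other genes of mitosis and its entry. The mitotic cyclins CCNB1 and CCNB2 had log2 changes of 0.04 (0.01 to 0.07) and 0.05 (0.00 to 0.10), and AURKA, BUB1, KIF20A and UBE2C lay between 0.14 and 0.34. PRC1 had -0.03, TPX2 and CDC20 each had -0.08, and the lowest were CCNA2 at -0.25 (-0.30 to -0.19) and CDC25B at -0.44 (-0.48 to -0.40). These genes were picked from the gene lists after their values were seen. The lists hold others that lay in both directions, such as CDC25C at 0.27, CDK1 at 0.14, CEP55 at -0.09 and ECT2 at -0.13. Genes of these phases outside the lists were not searched. The part of cell cycle phase in the PLK1 level was not tested.

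One member, PLK1, was at least 1.5-fold lower in the knockdown, as were 6.70% of all genes, and 0 members were at least 1.5-fold higher, against 7.76% of all genes. No member differed by 2-fold, against 6.37% of all genes in either direction. Counting intervals left out no change on the lower side for 2 members, PLK1 and PLK2, and for 28.2% of all genes. On the higher side they did so for 0 members and 27.1% of genes. Among the 9074 genes whose mean normalized count was 500 or more, 204 genes (2.25%) were at least as low as PLK1. The SD of the log2 changes over these genes was 0.32, and their median was -0.02.

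Setting the inhibitor library beside the control asks whether blocking the PLK1 protein goes with a different level of its own mRNA or of its relatives. PLK3 was the member that differed most, at 142% of its control level. Its log2 change was 0.51 (0.34 to 0.68). The mRNA of the inhibited kinase itself, PLK1, stood at 106%, with a log2 change of 0.08 (0.03 to 0.12). The log2 change was 0.03 (0.00 to 0.05) for PLK2 and 0.05 (-0.05 to 0.14) for PLK4.

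None of the 4 members reached 1.5-fold after the inhibitor, where 3.97% of all genes were higher and 4.01% lower by that much, and 2.52% differed by 2-fold. Counting intervals lay above no change for 3 members, PLK1, PLK2 and PLK3, and for 23.1% of all genes. They lay below it for 0 members and 22.8% of genes. PLK3 lay in the upper tail of the 9074 genes used above, of which 70 (0.771%) were at least as high. Its normalized counts were 506 in the control, 488 in the knockdown and 719 in the inhibitor library. The inhibitor library, where PLK3 was high, thus helped it pass the limit of a mean of 500. Its place in this tail is not independent of that value, and the interval of its change was wide (0.34 to 0.68). For PLK1, 31.6% of the same genes were at least as high. The SD of the log2 changes in this comparison was 0.19, and the median was 0.01.

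**Figure D2:**
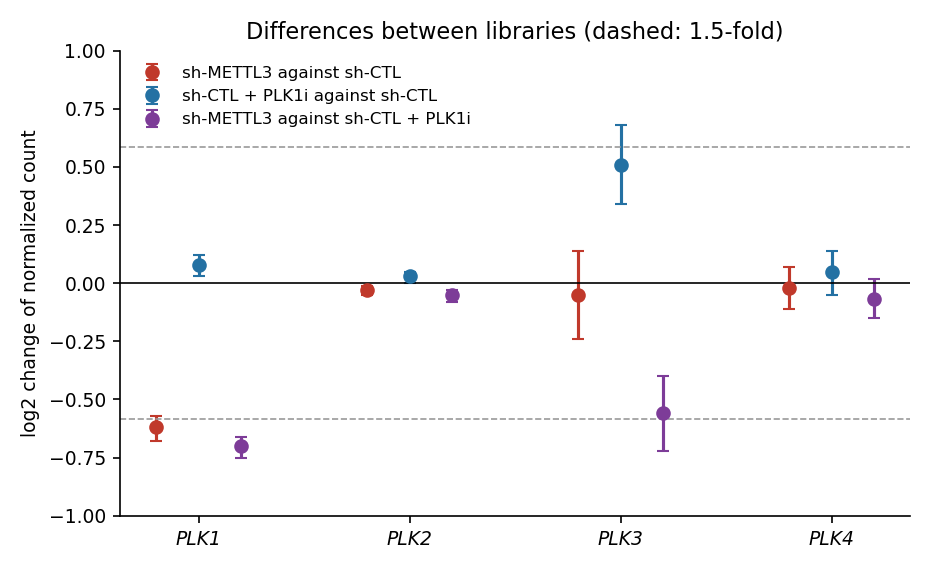
log2 change of each polo-like kinase between the libraries, with 95% counting intervals as bars and dashed lines at 1.5-fold. PLK1 is low in both comparisons that set the knockdown first (-0.62 and -0.70), PLK3 is high in inhibitor against control (0.51), and PLK2 and PLK4 stay between -0.07 and 0.05.

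**Figure D3:**
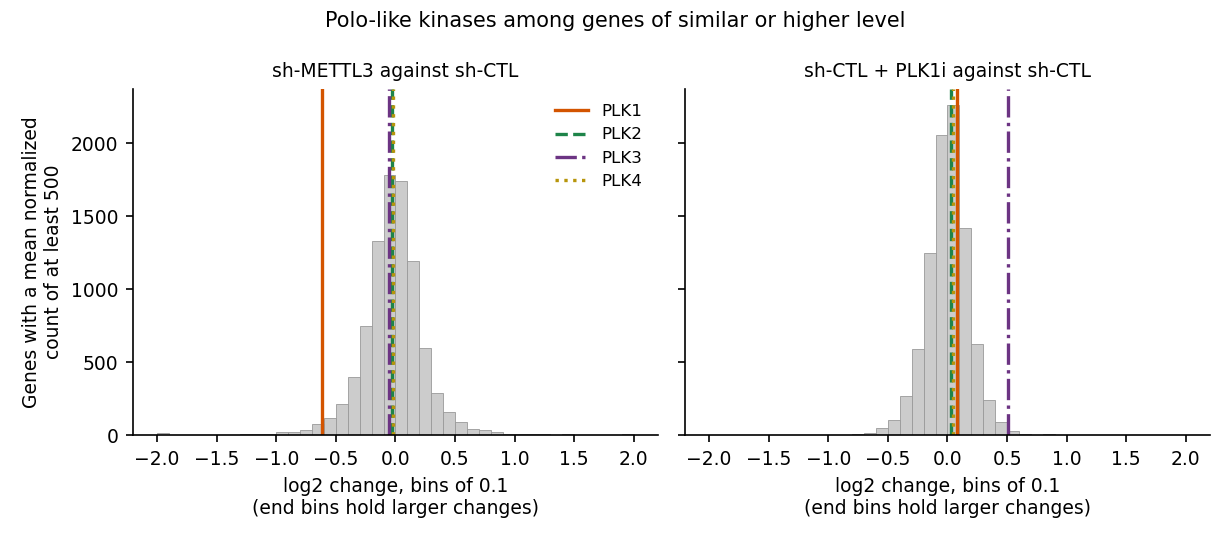
Histogram of the log2 changes of the 9074 genes whose mean normalized count was 500 or more, with the 4 kinases as vertical lines. In knockdown against control, PLK1 lies in the lower tail and its relatives at the center. In inhibitor against control, PLK3 lies in the upper tail, within a set that its own inhibitor count helped it to enter.

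Both comparisons above use the same control library, so their values are given side by side only. A direct comparison of the other pair of libraries does not use it. PLK1 was lower in the knockdown than in the inhibitor library, at 61.4% (log2 change -0.70, -0.75 to -0.66). PLK3 was lower too, at 68.0% (-0.56, -0.72 to -0.40). PLK2 stood at 96.3% (-0.05, -0.08 to -0.03) and PLK4 at 95.6% (-0.07, -0.15 to 0.02). PLK1 was again the 1 member at least 1.5-fold lower, as were 8.36% of all genes, and no member was 1.5-fold higher, against 9.97% of genes. No member differed by 2-fold, against 7.47%. The counting interval lay below no change for 3 members and 32.5% of genes, and above it for 0 members and 32.0% of genes.

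Ratios between paralogs within a library are free of any scaling between libraries. There were 6 pairs, and their ratios of reads were compared with exact conditional intervals. In knockdown against control, 3 pairs differed beyond counting error, and each of them held PLK1. The PLK1 to PLK4 ratio was 3.99 in the control and 2.63 in the knockdown, a ratio of ratios of 0.657 (0.611 to 0.707). The PLK1 to PLK2 ratio went from 0.230 to 0.152 (0.661, 0.636 to 0.687). The PLK1 to PLK3 ratio went from 15.9 to 10.7 (0.672, 0.588 to 0.768). The 3 ratios among PLK2, PLK3 and PLK4 stayed within counting error.

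In inhibitor against control, 4 pairs differed beyond counting error. Each pair with PLK3 was among them. The PLK3 to PLK4 ratio was 0.251 in the control and 0.345 after the inhibitor (ratio of ratios 1.38, 1.20 to 1.58), and the PLK2 to PLK3 ratio went from 69.3 to 49.7 (0.717, 0.635 to 0.808). The PLK1 to PLK3 ratio went from 15.9 to 11.8 (0.744, 0.657 to 0.841). The remaining pair, PLK1 to PLK2, had a ratio of ratios of 1.04, just beyond counting error. The PLK2 to PLK4 ratio was 17.4 in the control, 17.3 in the knockdown and 17.2 in the inhibitor library, within counting error in all 3 comparisons. Between the knockdown and inhibitor libraries, 4 of the 6 pairs differed beyond counting error.

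The genes that activate, bind or remove PLK1 were read from lists, with 6.70% of all genes at least 1.5-fold lower in the knockdown as the background. The first list held 12 genes that activate PLK1 or act with it at mitotic entry. In the knockdown none of the 12 reached 1.5-fold, and the median log2 change was 0.00, equal to that of all genes. AURKA, the kinase that phosphorylates the activation loop of PLK1, had a log2 change of 0.14 (0.10 to 0.18). BORA, its cofactor, had 0.04 (-0.07 to 0.15). CDC25B, a phosphatase that releases CDK1, had the lowest value in this list (-0.44, -0.48 to -0.40), and CDC25C the highest (0.27, 0.17 to 0.38). FOXM1, a transcription factor of G2 and M phase genes, had -0.03 (-0.06 to 0.00).

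After the inhibitor, again none of the 12 reached 1.5-fold, and their median was 0.05. BORA had the highest log2 change (0.41, 0.30 to 0.52) and CDK1, the mitotic cyclin-dependent kinase, the lowest (-0.44, -0.50 to -0.39). AURKA had 0.36 (0.32 to 0.40). Thus the activators AURKA and BORA were both higher in the inhibitor library, while the PLK1 change there was 0.08.

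The second list held 15 docking partners and substrates of PLK1. None reached 1.5-fold in either comparison with the control, and the medians were 0.02 in the knockdown and 0.06 after the inhibitor. KIF20A, a kinesin that recruits PLK1 to the central spindle, was the highest in the knockdown at 0.34 (0.30 to 0.39), and ECT2, the activator of RhoA in cytokinesis, the lowest at -0.13 (-0.16 to -0.09). After the inhibitor, the abscission protein CEP55 was the highest at 0.36 (0.32 to 0.40) and INCENP, a scaffold of Aurora B, the lowest at -0.34 (-0.40 to -0.28).

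The third list held 8 genes for the removal and destruction of PLK1. None reached 1.5-fold in either comparison with the control, with medians of 0.04 in the knockdown and -0.01 after the inhibitor. FZR1, the activator of the anaphase-promoting complex that marks PLK1 for destruction, had 0.13 (0.05 to 0.21) in the knockdown and -0.55 (-0.65 to -0.46) after the inhibitor. UBE2C, a ubiquitin-conjugating enzyme of the same complex, had 0.20 (0.16 to 0.25) and -0.34 (-0.39 to -0.29). In the inhibitor library FZR1 thus came close to the 1.5-fold limit on the lower side. KLHL22 came close to it there too, at -0.53 (-0.69 to -0.37). Others of this list went the other way there. UBE2S had 0.07 (0.03 to 0.11) in the knockdown and 0.22 (0.18 to 0.26) after the inhibitor, the highest there. CUL3 had -0.10 (-0.16 to -0.04), the lowest in the knockdown, and 0.15 (0.10 to 0.20) after the inhibitor. After the inhibitor 4 of the 8 lay above counting error and 3 below it, against 23.1% and 22.8% of all genes.

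Regulators of cell cycle transcription formed a further list of 14 genes. Most belong to the MuvB, DREAM and E2F complexes, which bind CHR and E2F elements, but NFYA and NFYB do not. None reached 1.5-fold in either comparison with the control. Their medians were -0.04 in the knockdown and 0.03 after the inhibitor. E2F1, an activator of S phase genes, was the lowest in both, at -0.22 (-0.29 to -0.14) and -0.40 (-0.48 to -0.32).

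The PLK4 list held 13 partners of centriole duplication. PLK4 itself was within counting error of no change, and its partners had a median log2 change of 0.16 in the knockdown, with 9 of 13 above counting error, 1 below it and none at 1.5-fold. Over all genes, 27.1% lay above counting error and 28.2% below it. CEP192, which recruits PLK4 to the centriole, had 0.25 (0.19 to 0.31). STIL, the substrate that PLK4 binds to start a new centriole, had 0.17 (0.11 to 0.24), and SASS6, the protein of the cartwheel, had -0.13 (-0.24 to -0.02). After the inhibitor the median of the partners was 0.03, with STIL the highest at 0.28 (0.22 to 0.34) and SASS6 the lowest at -0.37 (-0.49 to -0.26).

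PLK2 and PLK3 were set beside 15 early response genes that serum induces together with them. In the inhibitor library 9 of the 15 were at least 1.5-fold higher than in the control and 0 were lower, where 3.97% of all genes were higher by that much. Their median log2 change was 0.66, against 0.00 over all genes, and 14 of the 15 lay above counting error. This list was chosen with earlier results of these libraries known, so its count is not independent evidence of a direction. The PLK3 change of 0.51 lay below the median of the list, and the PLK2 change of 0.03 lay near the value of IER2 (0.01), the lowest of the 15. PLK2 and PLK3 thus had different changes in the inhibitor library, and neither reached 1.5-fold. Whether either kinase belongs with these genes was not tested.

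EGR1, an early growth response transcription factor, had 1754 reads in the control, 2341 in the knockdown and 5248 in the inhibitor library, and its inhibitor change was 1.24 (1.16 to 1.32) on the log2 scale. ATF3, a stress-induced transcription factor, had 79, 141 and 383 reads, a change of 1.92 (1.58 to 2.30). FOS, a subunit of AP-1, had 244, 486 and 638 reads, a change of 1.04 (0.83 to 1.26). All of these were highest in the inhibitor library, as PLK3 was. PLK1, PLK2 and PLK4 also had their highest normalized counts there, with smaller log2 changes (0.08, 0.03 and 0.05). JUN, a partner of FOS and a reported substrate of PLK3, had 3025, 4814 and 7337 reads and a change of 0.94, beyond counting error. The others past 1.5-fold were FOSL1 (0.66), DUSP1 (0.64), CCN1 (0.89), EGR3 and EGR2. EGR3 had 91 reads in the control and 329 in the inhibitor library, and EGR2 had 5 and 61.

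In the knockdown the early response genes went in different directions, with 2 of 15 at least 1.5-fold higher, 3 at least 1.5-fold lower and a median of 0.09, where 7.76% of all genes were higher and 6.70% lower by that much. The matricellular gene CCN2 had 350 reads in the control, 13 in the knockdown and 563 in the inhibitor library, a log2 change of -4.97 (-6.01 to -4.29) in the knockdown. CCN1, from the same gene family, had 2884, 1875 and 6785 reads and a change of -0.95 (-1.04 to -0.87). IER3, the other lower gene, had -0.76 (-0.92 to -0.60). FOS had a change of 0.66 (0.44 to 0.89) in the other direction, and EGR2 had 1.03 on few reads (-0.40 to 2.98), within counting error. PLK3 stood near the middle of this spread at -0.05.

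**Figure D4:**
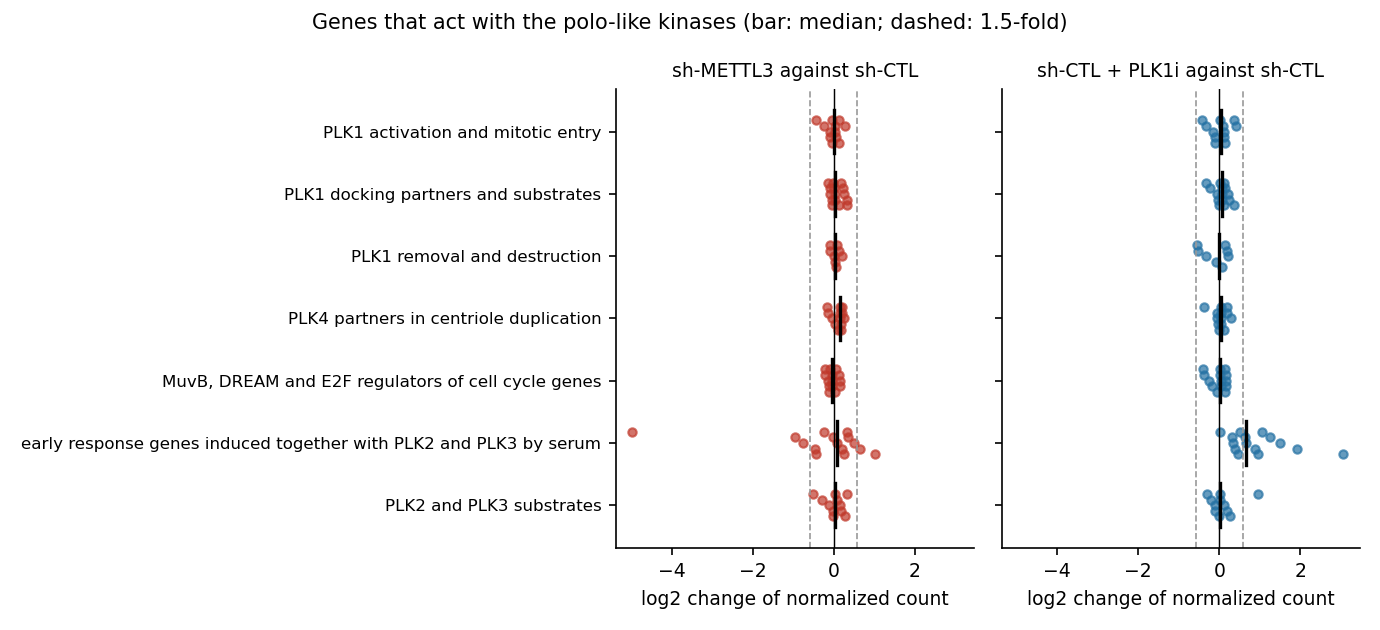
log2 change of the genes of the lists described here for the knockdown and for the inhibitor library, each set against the control, with black bars at the list medians and dashed lines at 1.5-fold. The early response list has a median of 0.66 after the inhibitor and 0.09 in the knockdown, and the lists around PLK1 and PLK4 stay within 1.5-fold.

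Among 11 of 12 listed substrates of PLK2 and PLK3 with a value, JUN alone reached 1.5-fold after the inhibitor and none did so in the knockdown. HIF1A, the hypoxia factor that PLK3 phosphorylates, had a log2 change of -0.51 (-0.54 to -0.48) in the knockdown and 0.02 (-0.01 to 0.05) after the inhibitor.

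The genes with the most similar pair of log2 changes against the control were named for each kinase by distance among 8989 other genes that had a symbol and whose mean normalized count was 500 or more, over the 3 libraries. SNX10, ARF5 and URGCP were the most like PLK1. SNX10, a sorting nexin, had 737 reads in the control, 602 in the knockdown and 980 in the inhibitor library, with log2 changes of -0.62 and 0.07. ARF5, a small GTPase of the Golgi, had changes of -0.60 and 0.05, and URGCP had -0.65 and 0.05. All 3 lie on chromosome 7, whereas PLK1 lies on chromosome 16. Only 51 genes (0.567%) lay within a distance of 0.1 of PLK1, and 16 of the 51 were on chromosome 7, which held 4.86% of the genes searched. The count on chromosome 7 was made after the names were seen.

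PLK3 also had few neighbors of this kind, 22 genes (0.245%) within 0.1. TAF13, a subunit of the transcription factor TFIID, was the nearest, with 1826, 2207 and 3295 reads and log2 changes of -0.06 and 0.51. It was followed by PTX3, a secreted pentraxin, and LYAR, a nucleolar protein. By contrast, 1451 genes (16.1%) lay within 0.1 of PLK2, the nearest being SMU1, TIMM22 and ABCC4, and 1389 genes (15.5%) lay within 0.1 of PLK4, the nearest being WARS2-AS1, WFS1 and ETFDH. PLK2 and PLK4 thus had many more of the searched genes near them than PLK1 and PLK3 had.

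On the chromosome, PLK1 was set beside its nearest 20 listed genes whose mean normalized count was 50 or more, 10 on each side over 4.83 Mb. In the knockdown the log2 changes of these genes had a median of -0.08 and ran from -0.38 to 2.89, and 0 of the 20 were lower than PLK1. The lowest of them was NDUFAB1, a mitochondrial acyl carrier protein. Over 638 such genes of chromosome 16, the median was -0.04. None of the listed genes around PLK1 was as low as PLK1.

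For PLK3, the nearest 20 genes over 1.52 Mb of chromosome 1 had a median log2 change of 0.02 after the inhibitor, from -0.38 to 0.79, and 19 of the 20 were lower than PLK3. The exception was BTBD19, which starts 8.15 kb from the start of PLK3 on the same strand. It had 37 reads in the control, 86 in the knockdown and 82 in the inhibitor library, with log2 changes of 0.87 (0.31 to 1.48) in the knockdown and 0.79 (0.23 to 1.41) in the inhibitor library. The pair thus differed in the knockdown, where PLK3 was at -0.05. PLK2 and PLK4 lay inside the range of their own neighbors in both comparisons.

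**Figure D5:**
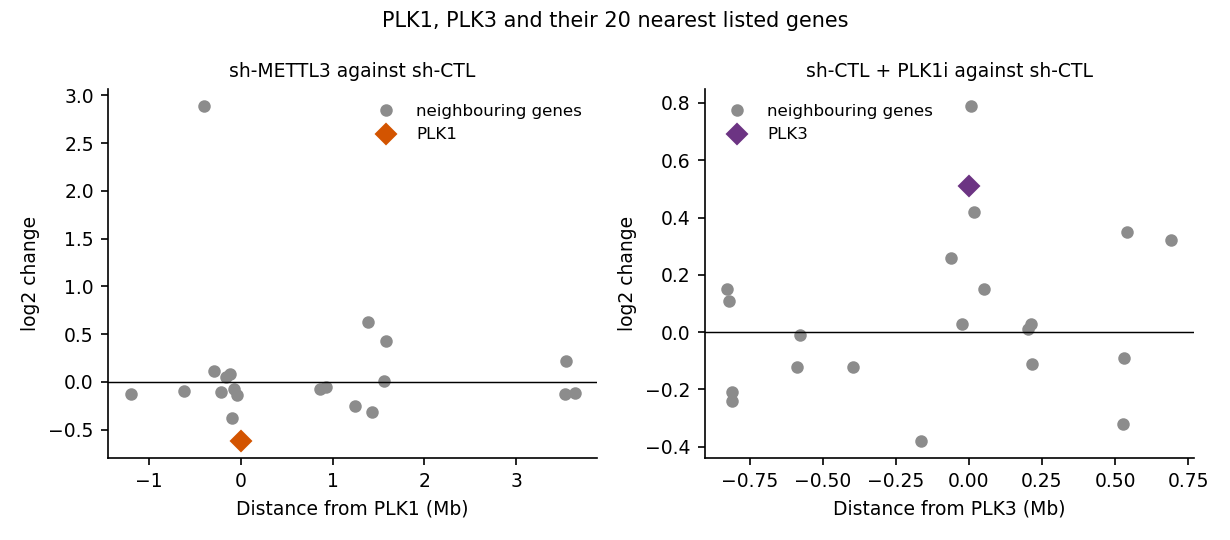
log2 change of PLK1 in the knockdown and of PLK3 in the inhibitor library, each set against the control, with their 20 nearest listed genes by distance in Mb between gene starts. PLK1 at -0.62 lies below all 20 genes around it, and PLK3 at 0.51 lies below 1 of 20, BTBD19 at 0.79.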

How the data were processed

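The authors deposited a table of log2 values for 14949 genes, 1 column per library. Libraries were made with a stranded TruSeq kit from total RNA. The submitters' processing notes name FastQC 0.11.9, STAR 2.7.10, RSEM 1.3.3 and hg19; the normalization is not given in the sources used here. As deposited, a log2 value was that of a library's scaled count with 4 added. Undoing this gave steps of 1.17, 0.927 and 0.921 per read in sh-CTL, sh-METTL3 and sh-CTL + PLK1i (size factors 0.858, 1.08 and 1.09), and 100% of values above 0 and under 2000 reads lay within 0.1 of a whole number. Larger values were rounded to whole reads. Each column was assigned to its sample through the abbreviation in its header.

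Changes are differences of log2(normalized count + 1), which shrinks the differences of genes with low counts. Requiring a mean normalized count of 1 or more removed no gene. For a change, the 95% interval is the exact (Clopper-Pearson) one for a ratio of reads, given their sum. They compare libraries, not conditions, and cover counting error only, since amplified reads are not independent molecules. At these depths 3 reads equal 0.0801, 0.0639 and 0.0629 CPM. Python 3.11.15, numpy 2.4.6, pandas 2.3.3, scipy 1.17.1 and matplotlib 3.10.9 were used. The intervals were checked on counts simulated with Poisson error only, which hold no amplification and no variation between cultures. Transcript lengths came from GENCODE 44 mapped to GRCh37, and promoters from RefSeq on GRCh38.p14.

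The members and gene lists were chosen with earlier results of these data known. The named genes were the 4 kinases, METTL3, list genes past 1.5-fold whose mean normalized count was 50 or more, the highest and lowest gene of each list, and the 3 most similar genes of each kinase. AURKA, FOXM1, EGR2, IER2 and the chromosomal neighbors not chosen by that rule were picked after their values were seen. 1 gene and 1 list of genes are not reported here.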

Additional observations from a re-analysis of the deposited data

How the results depend on the processing

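No paired analysis was possible because each group had 1 library, and leaving out a library left no comparison. Pseudocounts of 0.5 and of 4, the latter being the deposited log2 values, and scaling by median-of-ratios, trimmed mean of M-values, upper-quartile or total-read factors were tried, and 79 results were recomputed under 403 alternatives in all. Of these values, 389 stayed within the counting interval or within 1.5 times the count, 14 did not, and 0 reversed. A reversal was looked for only in kinase changes beyond counting error. The median-of-ratios factors (0.858, 1.08 and 1.09) equalled the deposited ones as printed, so that setting was no separate check. Small pseudocounts barely move genes with many reads, so much of this tally could not have differed. The PLK1 change in sh-METTL3 against sh-CTL lay between -0.625 and -0.605, and the PLK3 change after the inhibitor between 0.490 and 0.506. With upper-quartile factors, the PLK2 change in sh-METTL3 against sh-CTL + PLK1i was -0.019, against -0.054, and in 1 list that is not reported here 1 gene in place of 2 was 1.5-fold higher after the inhibitor. PLK2 changes this close to 0 are decided by the scaling. Requiring a mean normalized count of at least 200, which tests fewer genes, left 342 genes 1.5-fold higher and 383 lower in sh-METTL3 against sh-CTL, 90 and 81 in sh-CTL + PLK1i against sh-CTL, and 467 and 520 in sh-METTL3 against sh-CTL + PLK1i. At 2-fold it left 111 and 123, 19 and 7, and 127 and 158 in the same order. The order of the 4 kinases was the same in 3 of 3 libraries without division by length. PLK3, with 434 reads in sh-CTL, has the widest interval of the family. Variation between cultures was not measured.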
